A study of Mus musculus with 25 samples.

Results

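The salt-inducible kinases *Sik1*, *Sik2* and *Sik3* were followed in mouse white adipose tissue together with *Stk11*, which encodes their upstream kinase LKB1, and with 5 genes for proteins that these kinases phosphorylate, the CREB coactivators *Crtc1*, *Crtc2* and *Crtc3* and the class IIa histone deacetylases *Hdac4* and *Hdac5*. The 9 genes were found by their symbols among 54752 genes with counts, and each symbol matched a single gene ID. They were chosen by measured RNA levels, since *Sik3* stood among the genes that high-fat diet (HFD) lowered most strongly in epididymal white adipose tissue (eWAT), so in that contrast their values are described without a test. All 9 passed the filter of a mean of 1 CPM (counts scaled to library size) in both depots. The study asked how loss of *Acod1*, the gene for the enzyme that makes itaconate, alters the response of mice to HFD. Male C57BL/6N mice were fed from 5 weeks of age with normal diet (ND) or with an HFD that drew 60% of its calories from fat, for 16 weeks. The labels give 17 and 18 weeks for replicates 2 and 3 of the inguinal *Acod1*-/- group. In eWAT the groups were ND-fed wild type (n = 4), HFD-fed wild type (n = 5) and HFD-fed *Acod1*-/- (n = 5), and in inguinal white adipose tissue (iWAT) the same groups held 3, 5 and 3 libraries. The knockout line (C57BL/6N-Acod1em1(IMPC)J/J) lacked *Acod1* in the whole body, wild type mice were its littermates, and an ND-fed *Acod1*-/- group was not analysed here.

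Salt-inducible kinases belong to the AMP-activated protein kinase (AMPK) family and need phosphorylation by LKB1 to be active. When cyclic AMP rises, protein kinase A (PKA) phosphorylates them, 14-3-3 proteins bind and their activity towards substrates falls. While active, they keep the CRTC coactivators and class IIa deacetylases phosphorylated and out of the nucleus, which restrains CREB-driven and alters MEF2-driven transcription. *Sik2* is the member best known from adipocytes, where its activity sustains the insulin-responsive glucose transporter GLUT4 and lipogenic genes, *Sik1* is itself induced by CREB, and *Sik3* has been studied in bone growth and sleep. RNA levels measure none of these activities.

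Libraries held 31405063 to 52335623 counted reads. All 8 adipocyte markers were detected in every group, and their summed level ranged from 19296 to 49352 CPM. The 4 markers of mesothelium, which lines visceral fat, summed to at least 27.4 CPM in every eWAT library and at most 3.04 CPM in every iWAT library. *Acod1* was at or below 0.213 CPM in every library, wild type ones included, and the genotype labels cannot be checked on it. File headers number the libraries in a lower and a higher series, of 14 and 11 libraries. All ND-fed libraries carry numbers of the higher series, as does 1 library of each HFD-fed group. The series therefore goes largely with diet and is shared by the genotypes. T cell markers in ND-fed iWAT summed to 199 to 333 CPM against at most 53.4 CPM in every other library, and B cell markers to 412 to 637 CPM against at most 42.6 CPM. Skeletal muscle markers summed to 5915 CPM in ND-fed iWAT replicate 1, where no other library passed 468 CPM. Keratinocyte markers summed to 475 CPM in *Acod1*-/- iWAT replicate 2, where no other library passed 87.6 CPM. As the study describes them, the libraries of a group came from separate mice of a single experiment, so the spread between them is that between animals.

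*Sik2* and *Sik3* lie on the same chromosome, and the 250 bases upstream of their annotated starts are shown because these kinases had the largest differences by diet in eWAT among the members. Sequences were taken from RefSeq (GRCm38.p6), which matched 7 of the 9 symbols, all but *Sik1* and *Crtc2*. They run 5′ to 3′ on the strand of the gene, and capitals mark TGACG, the core of the cyclic AMP response element to which CREB binds, searched on both strands.
Sik3, plus strand, chr9:46012570-46012819: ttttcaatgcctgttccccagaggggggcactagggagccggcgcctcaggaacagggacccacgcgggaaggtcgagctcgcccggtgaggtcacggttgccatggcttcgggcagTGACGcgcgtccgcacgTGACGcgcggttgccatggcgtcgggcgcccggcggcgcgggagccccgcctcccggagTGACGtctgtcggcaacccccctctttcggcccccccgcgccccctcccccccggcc
Sik2, minus strand, chr9:51009074-51009323: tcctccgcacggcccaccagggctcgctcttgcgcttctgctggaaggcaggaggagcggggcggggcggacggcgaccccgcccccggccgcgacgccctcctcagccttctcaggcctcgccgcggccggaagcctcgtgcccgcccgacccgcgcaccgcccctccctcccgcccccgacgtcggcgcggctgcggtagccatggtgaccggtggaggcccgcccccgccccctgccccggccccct
The *Sik3* promoter held TGACG 3 times, at 133, 116 and 57 bases before the start, and the *Sik2* promoter did not hold it. Of 32851 promoter windows of the same length, 17.8% held TGACG at least once and 0.688% held it 3 times or more. The complete palindrome TGACGTCA, which contains TGACG on both strands, was in neither promoter and in 1.55% of all windows. Among the other members, *Hdac4* held TGACG 2 times and *Stk11* once, and *Crtc1*, *Crtc3* and *Hdac5* did not hold it. These matches describe the letters of the window and not binding. The *Hdac4* window, at chromosome 1, 92180342 to 92180591, lies inside the gene as positioned below, which ends at 92195699. The annotations thus differ in the start of this gene.

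Per unit of transcript length, *Sik2* was the most abundant of the kinases in ND-fed fat. In ND-fed eWAT, *Sik2* measured 26.7 FPKM (fragments scaled to transcript length and library size), *Sik1* 11.3 FPKM and *Sik3* 7.85 FPKM (means, n = 4). *Sik2* thus held 58.0% ± 5.24 (SD, n = 4) of the summed FPKM of the kinases, which was 45.8 ± 5.87 FPKM (SD, n = 4). In HFD-fed wild type eWAT the sum was 16.9 ± 3.40 FPKM (SD, n = 5) and the share of *Sik2* 40.9% ± 9.54 (SD, n = 5). In HFD-fed *Acod1*-/- eWAT the sum was 21.3 ± 4.56 FPKM (SD, n = 5) and the *Sik2* share 55.3% ± 3.90 (SD, n = 5). The *Sik2* shares of the *Acod1*-/- eWAT libraries, 50.5% to 61.2%, lay above those of HFD-fed wild type eWAT, 24.4% to 48.7%, and inside those of ND-fed eWAT, 50.3% to 61.7%. In iWAT, the sum was 35.2 ± 7.76 FPKM on ND (SD, n = 3), 22.4 ± 3.73 FPKM in HFD-fed wild type (SD, n = 5) and 22.1 ± 5.82 FPKM in HFD-fed *Acod1*-/- mice (SD, n = 3). *Sik2* shares there were 57.2%, 45.8% and 56.8%, and the HFD-fed groups overlapped. Among the other members, *Stk11* was the most abundant per length, at a mean of 24.8 to 30.7 FPKM over the groups, followed by *Crtc2* at 7.06 to 15.7 FPKM and *Hdac5* at 7.35 to 8.84 FPKM. *Crtc2* had the higher mean of these in both ND-fed groups and in *Acod1*-/- iWAT, and *Hdac5* in the other HFD-fed groups. *Crtc3* stood at 1.72 to 2.83 FPKM. *Hdac4*, at 1.0 to 1.28 FPKM, and *Crtc1*, at 0.720 to 1.38 FPKM, were the lowest and overlapped each other.

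**Figure D1:**
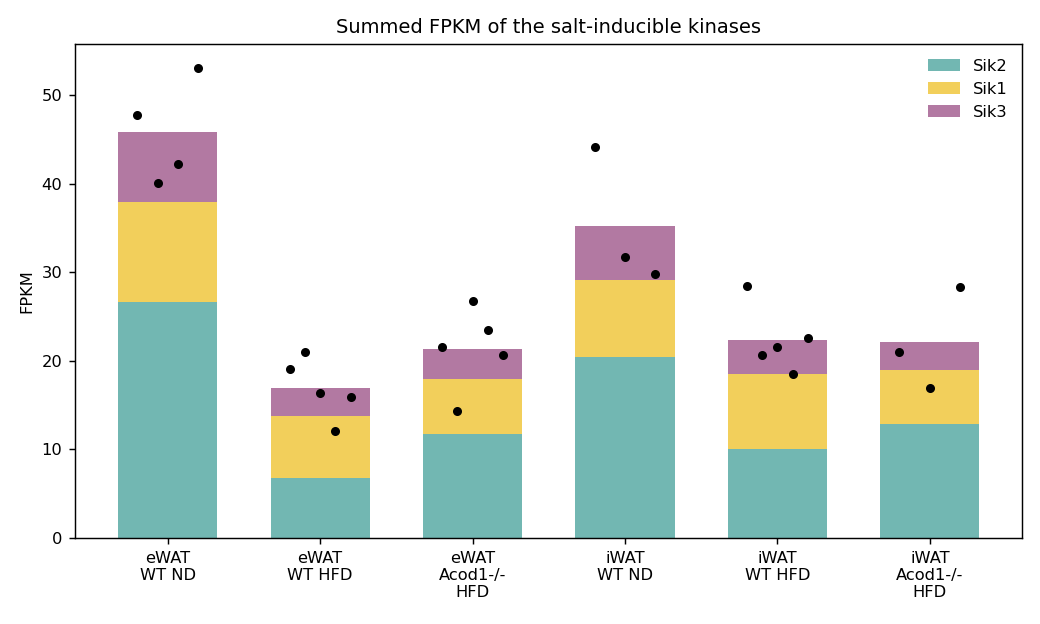
Stacked bars give the mean FPKM of *Sik2*, *Sik1* and *Sik3* in each depot and group, and points give the sum of the 3 kinases in each library. The stack is highest in ND-fed eWAT, at 45.8 FPKM, and lowest in HFD-fed wild type eWAT, at 16.9 FPKM.

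In eWAT, HFD-fed wild type mice had less RNA of *Sik2* and *Sik3* than ND-fed mice, with smaller differences for *Sik1*, *Crtc1* and *Crtc2*, while *Crtc3*, *Hdac4*, *Hdac5* and *Stk11* overlapped between diets. Of the 9 genes, 5 were past the threshold as lower and 0 as higher (edgeR, adjusted p under 0.1), where 26.9% of the 14936 genes tested were lower and 24.8% higher. The selection used this contrast, so nothing is read from that count. *Sik3* measured 67.1, 65.6, 76.7 and 73.7 CPM in the ND-fed libraries and 30.0, 30.0, 31.9, 27.3 and 27.4 CPM in the HFD-fed wild type libraries. The diets were far apart for *Sik3*, and the spread within each was small, at 5.29 CPM (SD, n = 4) and 1.97 CPM (SD, n = 5). *Sik2* measured 247, 212, 207 and 318 CPM on ND and 40.95, 84.3, 67.8, 57.9 and 70.6 CPM on HFD, again without overlap. The fitted log2 fold change was -1.94 for *Sik2* (SE 0.19) and -1.27 for *Sik3* (SE 0.090).
*Crtc2*, the coactivator that carries cyclic AMP and fasting signals in metabolic tissue, measured 43.2, 47.6, 49.7 and 51.9 CPM on ND and 20.6 to 34.7 CPM on HFD (log2 fold change -0.75, SE 0.14). *Crtc1* stood at 12 to 17.7 CPM on ND and 7.85 to 11.2 CPM on HFD (log2 fold change -0.66, SE 0.17). Neither coactivator overlapped between the diets, though the margin of *Crtc1* was below 1 CPM. *Sik1* did overlap, with 37.03 to 67.8 CPM on ND and 17.7 to 51.7 CPM on HFD (log2 fold change -0.70, SE 0.30). It was past the threshold in 8 of the 14 fits that each left a library out. The 4 remaining members had log2 fold changes from -0.13 (*Crtc3*) to 0.15 (*Hdac4*), with *Stk11* at 0.067 and *Hdac5* at 0.031.
The HFD-fed wild type library in the number series of the ND-fed libraries had 70.6 CPM of *Sik2* and 27.4 CPM of *Sik3*, inside the range of the other HFD-fed wild type libraries. With the series as a term in the fit, the log2 fold changes were -1.92 for *Sik2* and -1.37 for *Sik3*. The 8 macrophage markers were all higher on HFD in eWAT, with a sum of 401 to 816 CPM on ND and 1929 to 5770 CPM on HFD. Of the 8 adipocyte markers 3 were lower (*Cfd*, *Plin1* and *Lipe*) and 1 higher, and their sums overlapped, at 27114 to 40319 CPM on ND and 19296 to 42239 CPM on HFD. Of 5 fibroblast or progenitor markers 4 were higher, with sums of 1001 to 1281 CPM on ND and 1618 to 2773 CPM on HFD, 3 of 4 endothelial markers were lower and 3 of 5 T cell markers higher. In bulk tissue, fewer cells of a type and less RNA per cell cannot be told apart. Per 1000 CPM of adipocyte markers, a ratio chosen after the values were seen, *Sik2* was at 5.14 to 7.95 CPM on ND and 1.67 to 3.04 CPM on HFD, and *Sik3* at 1.83 to 2.42 CPM and 0.648 to 1.56 CPM, so that on this scale too the diets did not overlap.

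**Figure D2:**
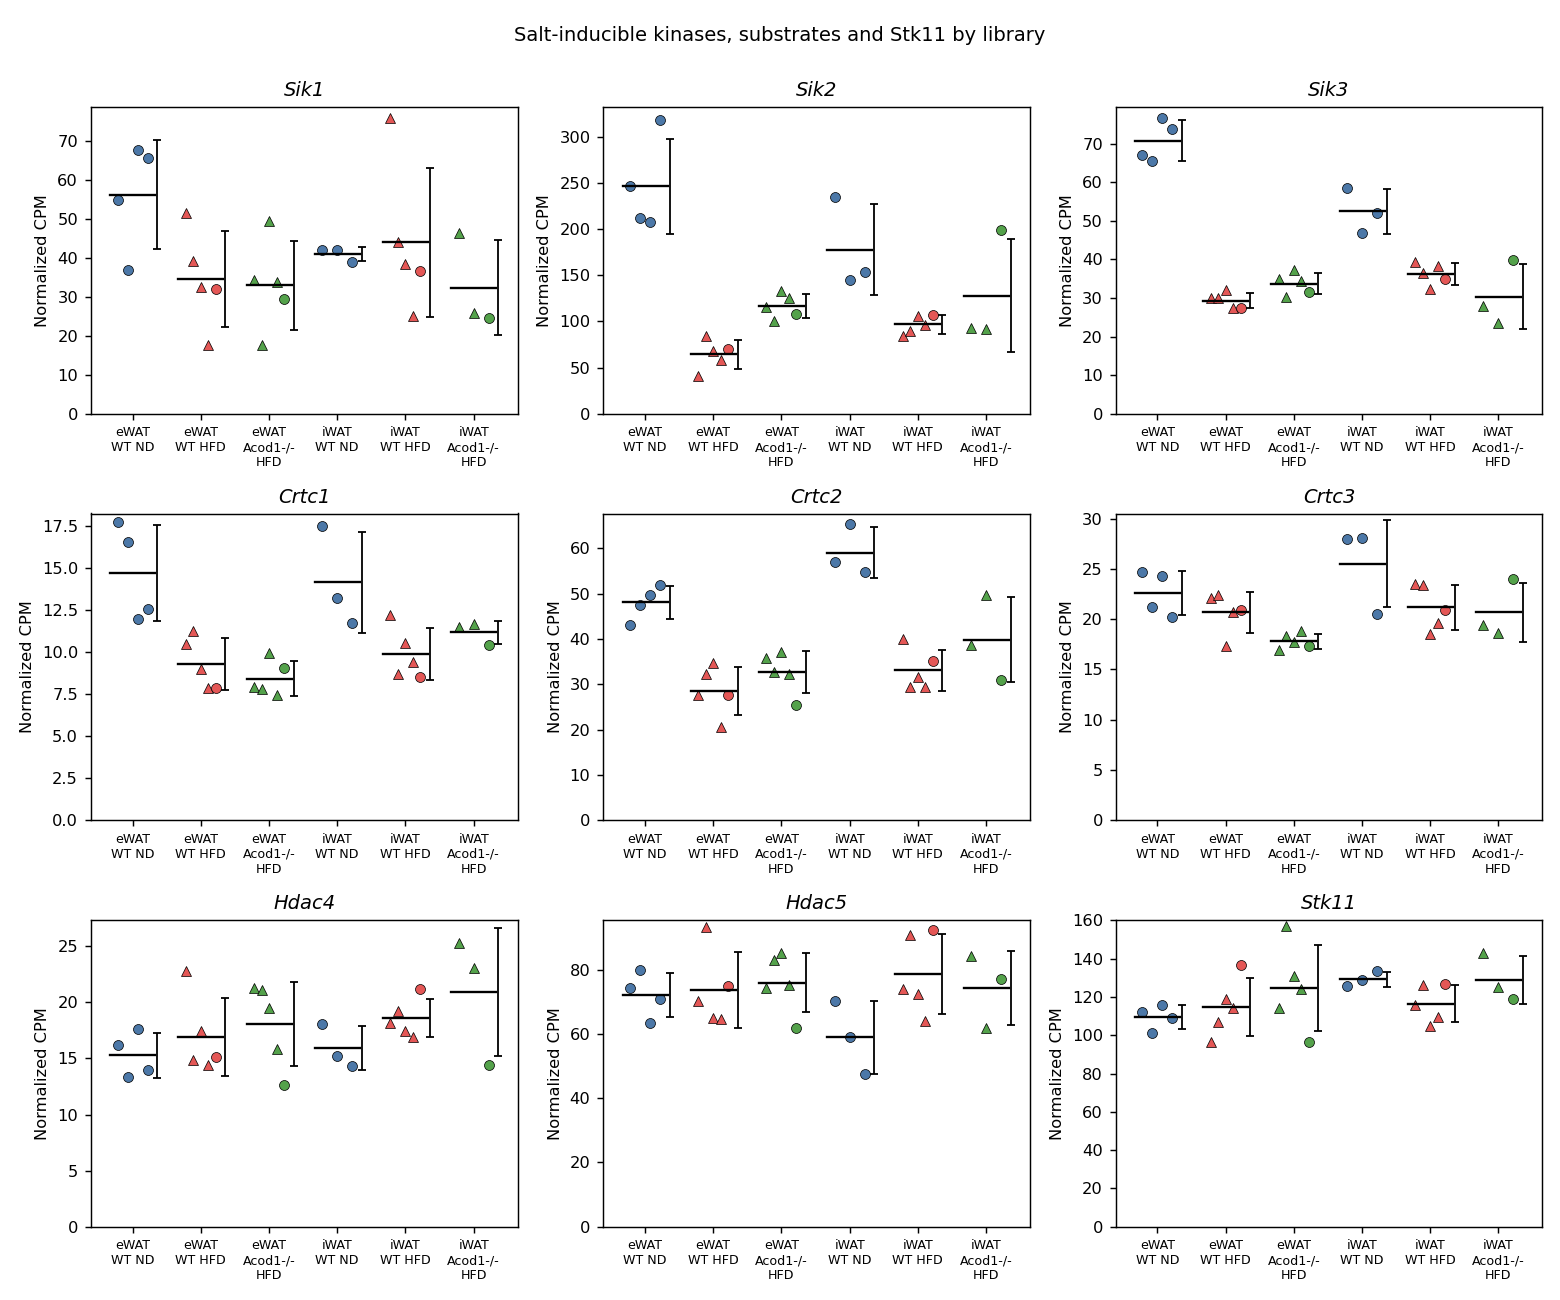
Each panel gives one gene's TMM-normalized CPM (axis from 0) in every library of the 6 groups, with the mean as a horizontal line and the SD as a bar beside it; circles are libraries of the higher number series and triangles of the lower one. For *Sik2* and *Sik3* in eWAT, ND-fed libraries lie at 207 to 318 and 65.6 to 76.7 CPM, above every HFD-fed library.

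By genotype in eWAT, *Sik2* was higher in HFD-fed *Acod1*-/- than in HFD-fed wild type mice, and no other member was called. *Sik2* measured 116, 101, 133, 125 and 108 CPM in *Acod1*-/- libraries against 40.95, 84.3, 67.8, 57.9 and 70.6 CPM in wild type ones. All 5 *Acod1*-/- libraries lay above all 5 wild type libraries and below all 4 ND-fed libraries. The log2 fold change was 0.86 (SE 0.18, edgeR adjusted p = 0.0129), where 9.13% of the 14936 genes were called higher and 10.8% lower. *Sik2* was called without any single library, with log2 fold changes from 0.72 to 0.97, within the lower number series (0.91, adjusted p = 0.0180) and with the series as a term (0.86, adjusted p = 0.0162). Its wild type libraries are those of the diet contrast, so the values by diet and by genotype are not independent. The selection named *Sik3* and not *Sik2*, but the p of *Sik2* uses the same wild type libraries and is not free of that selection. Macrophage markers moved with this difference. All 8 were called lower in *Acod1*-/- eWAT, and their sum was 416 to 1608 CPM there against 1929 to 5770 CPM in wild type. Of 5 fibroblast or progenitor markers 3 were called lower, with sums of 863 to 1594 CPM in *Acod1*-/- and 1618 to 2773 CPM in wild type, and 2 of 5 T cell markers were lower. Of the 8 adipocyte markers 4 were called higher and 0 lower, and the group sums, 34458 to 44869 CPM and 19296 to 42239 CPM, overlapped. Per 1000 CPM of adipocyte markers, *Sik2* stood at 2.26 to 3.32 CPM in *Acod1*-/- and 1.67 to 3.04 CPM in wild type eWAT, and the genotypes overlapped on this scale. The means were 2.87 ± 0.42 CPM in *Acod1*-/- (SD, n = 5) and 2.08 ± 0.57 CPM in wild type (SD, n = 5).
*Sik3* measured 34.9, 30.3, 37.2, 34.5 and 31.6 CPM in *Acod1*-/- eWAT, with 3 of the 5 libraries above every wild type library (log2 fold change 0.20, SE 0.086). Per 1000 CPM of adipocyte markers the order of the means turned, at 0.828 CPM in *Acod1*-/- (range 0.680 to 0.918) and 0.992 CPM in wild type eWAT (range 0.648 to 1.56). The genotypes overlapped, and the wild type mean (SD 0.35, n = 5) leaned on its highest library, at 1.56 CPM. No p is given for *Sik3* here, since these wild type libraries were used in its selection. *Crtc3*, the coactivator linked to adrenergic signalling in adipocytes, measured 16.9 to 18.8 CPM in *Acod1*-/- and 17.3 to 22.4 CPM in wild type eWAT (log2 fold change -0.22, SE 0.098, edgeR adjusted p = 0.161). It was called lower without wild type replicate 3, its lowest library of that group (-0.27, adjusted p = 0.0798). The log2 fold changes of the other members ran from -0.14 (*Crtc1*) to 0.20 (*Crtc2*), with overlap between the genotypes for each. *Stk11* stood at 96.3 to 157 CPM in *Acod1*-/- and 96.6 to 137 CPM in wild type eWAT (0.12, SE 0.13, edgeR adjusted p = 0.581).

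In iWAT, from libraries that the selection did not use, *Sik2*, *Sik3*, *Crtc1* and *Crtc2* fell on HFD in wild type mice and *Hdac5* rose (edgeR adjusted p under 0.1). That is 4 of 9 lower and 1 higher, where 24.2% of 14801 genes were called lower and 25.9% higher. *Crtc2* measured 56.9, 65.5 and 54.8 CPM on ND and 40.1, 29.5, 31.5, 29.3 and 35.1 CPM on HFD. The diets did not overlap (log2 fold change -0.81, SE 0.15, edgeR adjusted p = 0.00183), and *Crtc2* was called under every alternative fit, each library left out in turn included. *Sik2* measured 235, 145 and 154 CPM on ND and 84.5, 89.7, 106, 96.6 and 107 CPM on HFD. Its libraries did not overlap between diets either (-0.85, SE 0.26, edgeR adjusted p = 0.0229). Without ND replicate 1, the library with muscle markers and the highest *Sik2* level of iWAT, the log2 fold change was -0.61 (edgeR adjusted p = 0.108). *Sik3* measured 58.5, 46.9 and 52.1 CPM on ND and 39.3, 36.4, 32.3, 38.2 and 34.98 CPM on HFD, without overlap (-0.51, SE 0.16, edgeR adjusted p = 0.0288, and -0.43, adjusted p = 0.0991, without ND replicate 1).
*Crtc1* was at 17.5, 13.2 and 11.7 CPM on ND and 8.51 to 12.2 CPM on HFD, with 1 HFD library above the lowest ND library (-0.49, SE 0.17, edgeR adjusted p = 0.0398). Without ND replicate 1 it was not called (-0.32, adjusted p = 0.196). *Hdac5*, whose product binds and represses MEF2 factors, measured 70.2, 58.9 and 47.6 CPM on ND and 64.0 to 92.4 CPM on HFD, and the diets overlapped (0.45, SE 0.17, edgeR adjusted p = 0.0517). It lost its call without ND replicate 2 or 3 (adjusted p = 0.132 and 0.229) and without HFD replicate 2 or 5 (adjusted p = 0.125 and 0.103). *Sik1* was at 38.9 to 42.1 CPM on ND and 25.1 to 75.9 CPM on HFD, where a single library held the top value and the next was at 44.1 CPM (0.13, SE 0.31, edgeR adjusted p = 0.756). *Hdac4* (0.26, adjusted p = 0.249), *Crtc3* (-0.24, adjusted p = 0.214) and *Stk11* (-0.12, adjusted p = 0.367) were not called, and *Crtc3* was called without ND replicate 3 (-0.40, adjusted p = 0.0552).
The only HFD-fed wild type iWAT library in the series of the ND-fed libraries had 107 CPM of *Sik2*, 34.98 CPM of *Sik3* and 35.1 CPM of *Crtc2*, each below the lowest ND library. With the series as a term, *Crtc2* (-0.90, adjusted p = 0.0118), *Crtc1* (-0.63, adjusted p = 0.0745) and *Hdac5* (0.64, adjusted p = 0.0454) were called, and *Sik2* (-0.29, adjusted p = 0.459) and *Sik3* (-0.25, adjusted p = 0.387) were not. In iWAT, therefore, the calls of these kinases by diet depended on the series term, which rests on 1 library of the higher series in each HFD-fed group. Of these, *Acod1*-/- replicate 3, labelled with 18 weeks of diet, measured 199 CPM of *Sik2* and 39.7 CPM of *Sik3*. The other *Acod1*-/- libraries had 93.0 and 92.0 CPM of *Sik2* and 27.8 and 23.5 CPM of *Sik3*. Few libraries thus separate diet from series for these kinases. T and B cell markers, all 5 and all 4 lower on HFD, moved with diet here, and 6 of 8 macrophage markers were higher, their sum being 412 to 506 CPM on ND and 511 to 1292 CPM on HFD. Of 5 fibroblast or progenitor markers 4 were higher, with sums of 441 to 740 CPM on ND and 1101 to 1907 CPM on HFD. All 4 endothelial markers were higher and all 4 skeletal muscle markers lower on HFD. Adipocyte markers, 4 of 8 higher and 1 lower, summed to 27387 to 33846 CPM on ND and 38947 to 49352 CPM on HFD. The part of these cell types in the differences of the kinases was not tested.

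**Figure D3:**
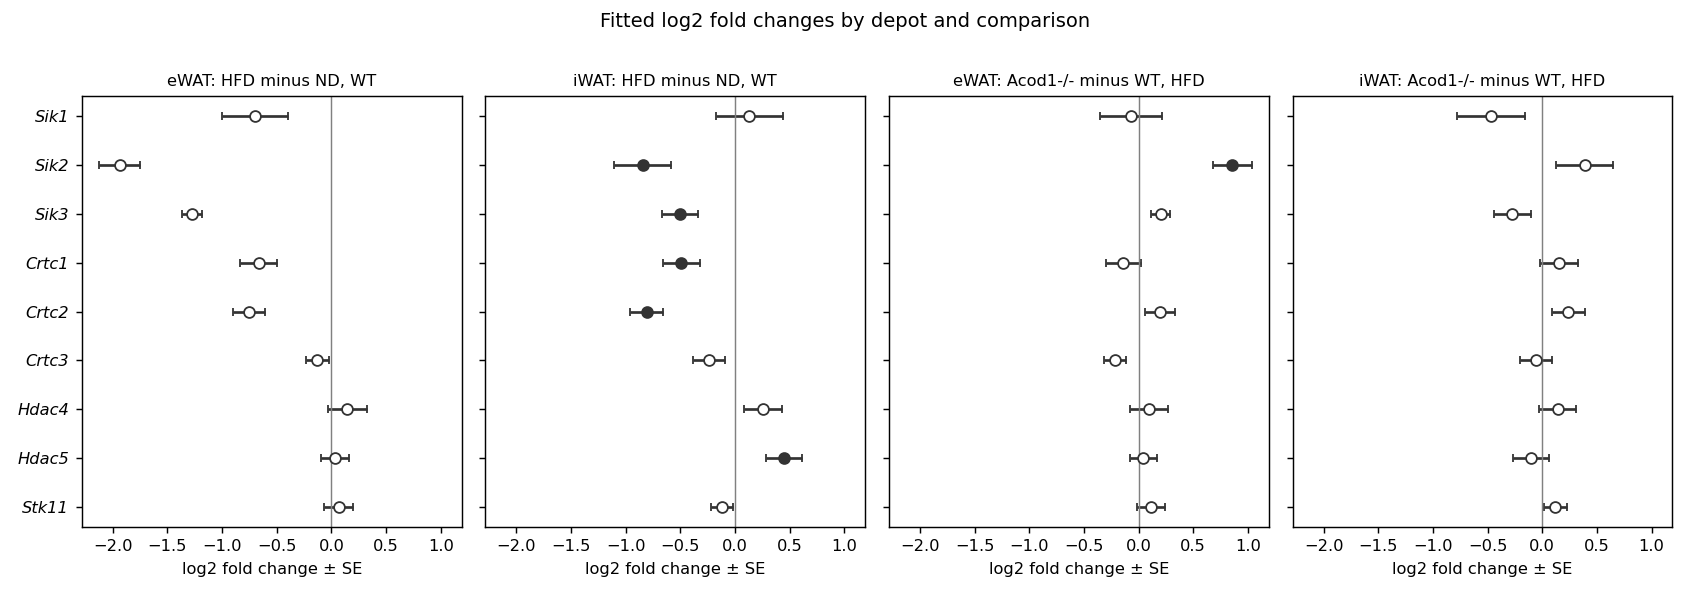
Points give the fitted log2 fold change of each gene and bars its standard error, for diet and genotype in eWAT and iWAT. Filled points passed an adjusted p under 0.1, and the first panel, the contrast used in the selection, carries no test; *Sik2* is at -1.94 and -0.85 by diet and at 0.86 and 0.39 by genotype.

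By genotype in iWAT, 0 of the 9 genes and 0 of the 14801 genes tested were called (0% background), while 2468 genes had an unadjusted p under 0.05 and DESeq2's Wald test called 440 higher and 632 lower. *Sik2* measured 93.0, 92.0 and 199 CPM in *Acod1*-/- against 84.5 to 107 CPM in wild type iWAT (log2 fold change 0.39, SE 0.26, edgeR adjusted p = 0.482). The value of 199 CPM belongs to replicate 3, and both others lay inside the wild type range. Replicate 3 was the only *Acod1*-/- iWAT library in the higher number series, and its label gives 18 weeks of diet against 16 weeks in wild type iWAT. Without it the log2 fold change of *Sik2* was -0.065 (adjusted p = 0.846). *Sik3* measured 27.8, 23.5 and 39.7 CPM in *Acod1*-/- against 32.3 to 39.3 CPM in wild type iWAT, with the highest value again in replicate 3. Its log2 fold change was -0.27 (SE 0.17, edgeR adjusted p = 0.439), and without replicate 3 it was -0.50 and called (adjusted p = 0.0400), in a fit that called 1401 genes higher and 1263 lower. Leaving out this library thus changed the calls over the whole table and not only that of *Sik3*. The *Acod1*-/- libraries left in that fit were replicates 1 and 2, and replicate 2 held the keratinocyte markers and the lowest *Sik3* level.
*Sik1* was at 46.5, 25.9 and 24.7 CPM in *Acod1*-/- and 25.1 to 75.9 CPM in wild type iWAT (-0.47, SE 0.31, edgeR adjusted p = 0.479). Log2 fold changes of the remaining members lay between -0.10 (*Hdac5*) and 0.24 (*Crtc2*), with overlap for each. In the test of whether the genotype effect differed between depots, *Sik2* was not called (-0.46, SE 0.31, edgeR adjusted p = 0.641), where 0.00665% of 15034 genes were. *Sik3* had a difference of -0.46 (SE 0.17), and of -0.68 without iWAT *Acod1*-/- replicate 3.

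Between depots, *Sik3* was lower in iWAT on ND and higher in iWAT in HFD-fed wild type mice. On ND it measured 46.9 to 58.5 CPM in iWAT and 65.6 to 76.7 CPM in eWAT (log2 fold change -0.43, SE 0.13). In HFD-fed wild type mice it measured 32.3 to 39.3 CPM in iWAT and 27.3 to 31.9 CPM in eWAT (0.31, SE 0.11). *Sik2* on HFD was at 84.5 to 107 CPM in iWAT and 40.95 to 84.3 CPM in eWAT (0.59, SE 0.21), while on ND the depots overlapped (-0.47, SE 0.25). Among HFD-fed *Acod1*-/- mice the depots overlapped for both kinases, with log2 fold changes of 0.13 for *Sik2* (SE 0.23) and -0.15 for *Sik3* (SE 0.13). The diet effect was smaller in iWAT than in eWAT by 1.06 for *Sik2* (SE 0.32) and 0.74 for *Sik3* (SE 0.17) on the log2 scale. Per 1000 CPM of adipocyte markers, mean *Sik3* in wild type eWAT was 2.08 CPM on ND and 0.992 CPM on HFD. In wild type iWAT it was 1.77 and 0.857 CPM, and the HFD-fed iWAT libraries (0.738 to 0.986 CPM) lay inside the eWAT range (0.648 to 1.56 CPM). Mean *Sik2* on this scale was 7.21 and 2.08 CPM in eWAT and 6.06 and 2.29 CPM in iWAT. These comparisons contain eWAT libraries of the selection and carry no test for the kinases. On ND 1 member was past the threshold as lower in iWAT, where 17.5% of 15034 genes were. In HFD-fed wild type mice 2 members were higher in iWAT (7.75% of all genes), and in HFD-fed *Acod1*-/- mice 0 of 9 passed in either direction (3.81% of all genes). For the difference of the diet effects 2 members were past it as higher (15% of all genes). The labels do not say whether libraries of both depots came from the same mice.

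Over the 6 groups, the order of *Sik3* levels was ND-fed eWAT (mean 70.8 CPM), ND-fed iWAT (52.5 CPM), HFD-fed wild type iWAT (36.2 CPM), HFD-fed *Acod1*-/- eWAT (33.7 CPM), HFD-fed *Acod1*-/- iWAT (30.3 CPM) and HFD-fed wild type eWAT (29.3 CPM). Ranges of neighbours overlapped among the 4 HFD-fed groups and nowhere else in this order. *Sik2* ran from 246 CPM in ND-fed eWAT through 178 CPM in ND-fed iWAT, 128 CPM in *Acod1*-/- iWAT, 117 CPM in *Acod1*-/- eWAT and 96.8 CPM in wild type iWAT to 64.3 CPM in HFD-fed wild type eWAT. The ND-fed depots overlapped, so did each further pair of neighbours down to wild type iWAT, and HFD-fed wild type eWAT, with a highest library of 84.3 CPM, lay just below wild type iWAT, with a lowest of 84.5 CPM. As a description across 25 libraries that share groups and depth, log2 CPM of *Sik2* and *Sik3* had a Pearson's r of 0.84, and of 0.58 once group means were removed. *Sik1* followed *Sik2* less, with r of 0.32 over all libraries and -0.091 within groups.

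**Figure D4:**
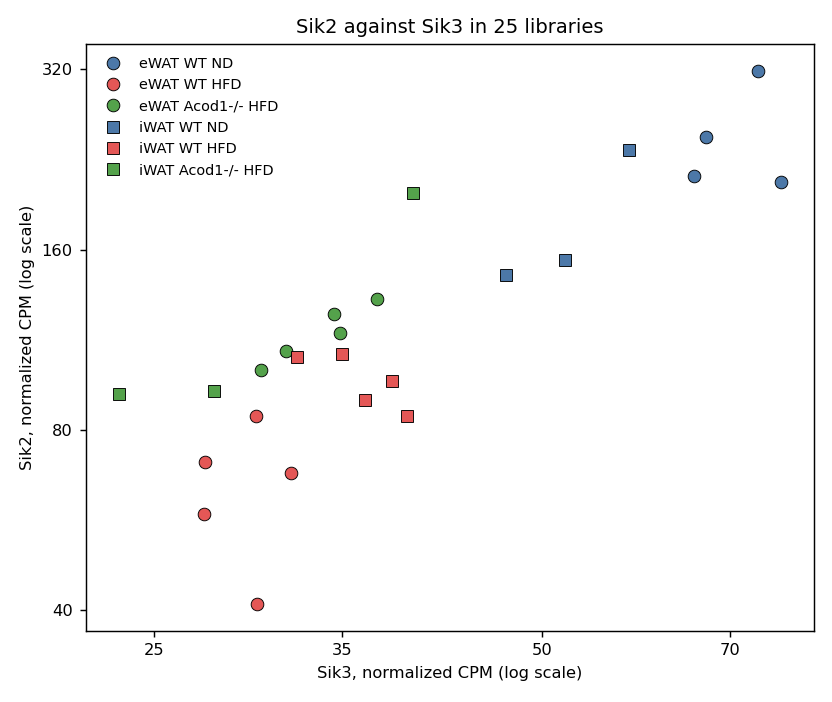
*Sik2* against *Sik3* in normalized CPM (both axes on a log scale), 1 point per library, with circles for eWAT and squares for iWAT. ND-fed libraries lie at the top right, with *Sik3* from 46.9 to 76.7 CPM, and at *Sik3* levels near 30 CPM the *Acod1*-/- eWAT libraries have more *Sik2* than the HFD-fed wild type ones.

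Among 11416 genes of 5 CPM or more on average, those whose log2 CPM followed *Sik3* most closely were *Lmod1* (r = 0.93), which encodes a leiomodin of smooth muscle, *Prrc2a* (0.92) and *Spen* (0.91), a transcriptional corepressor. For *Sik2* they were *Ube2o* (0.91), a ubiquitin-conjugating enzyme, *Gphn* (0.91), the scaffold protein gephyrin, and *Pde1a* (0.91), a phosphodiesterase. For *Sik1* they were *S1pr1* (0.82), an endothelial sphingosine 1-phosphate receptor, *Dgkh* (0.82) and *Cyp2d22* (0.81). Endothelial markers stood at 506 to 800 CPM in ND-fed eWAT and 247 to 454 CPM in HFD-fed wild type eWAT as a sum of 4. In wild type iWAT the sum went the other way, at 367 to 487 CPM on ND and 496 to 796 CPM on HFD. *Sik1* had a log2 fold change of 0.13 by diet there. The part of endothelial cells in the pattern of *Sik1* was not tested. Each r is a description over the same 25 libraries.

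The counts of the gene lists that follow stand beside shares of all genes tested of 24.8% higher and 26.9% lower by diet in eWAT, 25.9% and 24.2% by diet in iWAT, and 9.13% and 10.8% by genotype in eWAT. Of the genes upstream of the kinases, the 4 LKB1 partners, which form the active complex with it, had 0 called in eWAT by diet or genotype. In iWAT by diet, *Cab39l* (log2 fold change 0.69, SE 0.17, edgeR adjusted p = 0.00742) and *Stradb* rose and *Strada* (-0.48, SE 0.15, edgeR adjusted p = 0.0223) and *Cab39* fell, with a median of 0.067 beside 0.0043 over all genes. Of the 6 PKA subunits, 2 were past the threshold as higher and 1 as lower by diet in each depot, and 0 by genotype, counts by diet that lie near the shares of all genes. *Prkaca*, the main catalytic subunit, rose in iWAT (0.60, SE 0.14, edgeR adjusted p = 0.00566), and *Prkar2a* and *Prkacb* were the others there. The 14-3-3 proteins, which hold phosphorylated kinases and substrates in the cytosol, had 5 of 7 higher (25.9% of all genes) and 1 lower (24.2%) in iWAT by diet, led by *Ywhah* (0.63, SE 0.095, edgeR adjusted p = 0.000567), *Ywhaq* (0.82, SE 0.14, adjusted p = 0.00122) and *Ywhab* (0.58, SE 0.14, adjusted p = 0.00766), with a median of 0.34. In eWAT, 3 of the 7 were higher (24.8% of all genes) and 0 lower (26.9%) by diet, and *Ywhaz* (-0.42, SE 0.10, edgeR adjusted p = 0.0195) and *Ywhah* (-0.55, SE 0.14, adjusted p = 0.0278) fell by genotype.
Among 16 tested AMPK subunits and AMPK-related kinases, 5 were lower (26.9% of all genes) and 3 higher (24.8%) by diet in eWAT, which is near the background and says nothing about the family. There *Prkaa1*, the catalytic alpha 1 subunit of AMPK, had a log2 fold change of -0.68 (SE 0.12) and *Snrk* of -0.80 (SE 0.21). By genotype in eWAT, *Prkaa1* (0.33, SE 0.11, edgeR adjusted p = 0.0677) and *Prkag2* rose, and *Nuak2* (-1.01, SE 0.24, adjusted p = 0.0194), *Melk* and *Mark1* fell. *Melk*, a kinase of dividing cells, fell by 1.76 on the log2 scale (SE 0.45, edgeR adjusted p = 0.0256). In iWAT by diet the list had 1 higher and 3 lower, and its median log2 fold changes were -0.16 and 0.11 in eWAT by diet and genotype and 0.077 in iWAT by diet.

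Downstream, most of the 8 genes for GLUT4 and lipogenesis were lower on HFD in each depot, and 4 were higher by genotype in eWAT. In eWAT by diet 6 of 8 were past the threshold as lower (26.9% of all genes) and 0 as higher (24.8%), with a median log2 fold change of -0.94 beside -0.038 over all genes. *Slc2a4*, which encodes GLUT4, had a log2 fold change of -0.94 (SE 0.33) and *Acaca*, acetyl-CoA carboxylase, of -1.73 (SE 0.35). In iWAT by diet 6 of 8 fell (24.2% of all genes), with a median of -0.94 beside 0.0043, among them *Elovl6*, an elongase (-2.72, SE 0.42, edgeR adjusted p = 0.000632), *Acaca* (-1.75, SE 0.30, adjusted p = 0.00128) and *Acly* (-1.73, SE 0.35, adjusted p = 0.00278). By genotype in eWAT 4 of 8 rose (9.13% of all genes), with a median of 0.65 beside 0.044, and *Slc2a4* (1.16, SE 0.32, edgeR adjusted p = 0.0332), *Scd1*, stearoyl-CoA desaturase (1.07, SE 0.28, adjusted p = 0.0284), and *Mlxipl*, the carbohydrate-responsive factor ChREBP (0.75, SE 0.23, adjusted p = 0.0530), led them. *Mlxipl* lost its call without wild type replicate 1 or 4 or *Acod1*-/- replicate 2 or 3 (adjusted p = 0.131, 0.120, 0.110 and 0.132). In eWAT by genotype, 4 of 8 adipocyte markers were higher and 8 of 8 macrophage markers lower beside these genes. In iWAT by diet, adipocyte markers went the other way from them, with 4 of 8 higher and 1 lower. The part of these cells in the list's values was not tested.
The 13 CREB and CRTC target genes did not move in a single direction. In eWAT by diet 2 were higher and 6 lower, with *Fos* (log2 fold change 2.43, SE 0.57) and *Junb* (1.32, SE 0.24), immediate early genes, higher and *Pck1*, of glyceroneogenesis (-2.16, SE 0.42), lower. By genotype *Pck1* rose (1.69, SE 0.40, edgeR adjusted p = 0.0197) and *Junb* (-1.18, SE 0.22, adjusted p = 0.0110) and *Fos* (-2.06, SE 0.52, adjusted p = 0.0234) fell, while 10 of 13 were not called. In iWAT by diet 5 fell and 2 rose, *Fos* (2.77, SE 0.53, edgeR adjusted p = 0.00207) and *Crem* (0.42, SE 0.12, adjusted p = 0.0148), and among those that fell were *Pck1* (-2.11, SE 0.30, edgeR adjusted p = 0.000401), the nuclear receptor *Nr4a3* (-1.83, SE 0.32, adjusted p = 0.00136) and *Ppargc1a*, the coactivator PGC-1alpha (-1.03, SE 0.27, adjusted p = 0.0119). The median log2 fold changes were -0.64, 0.12 and -0.39 in the 3 comparisons. Of the 5 CREB factors and acetyltransferases, 0 were called in eWAT in either comparison, and in iWAT by diet *Creb1* (-0.77, SE 0.12, edgeR adjusted p = 0.000649), *Atf1* and *Ep300* fell and *Crem* rose. For *Creb1* the diets in iWAT also differed in T and B cell markers, and their part was not tested.
Of 5 tested class IIa deacetylases and MEF2 factors beyond the members, *Hdac9* and *Mef2c* had log2 fold changes of 2.04 (SE 0.33) and 1.43 (SE 0.23) by diet in eWAT, and *Hdac7* of -0.90 (SE 0.15). *Mef2c*, also expressed by lymphocytes and myeloid cells, fell by genotype in eWAT (-0.92, SE 0.21, edgeR adjusted p = 0.0174) and by diet in iWAT (-1.06, SE 0.19, edgeR adjusted p = 0.00141), opposite to its sign by diet in eWAT. *Hdac9* rose in iWAT on HFD (1.08, SE 0.26, edgeR adjusted p = 0.00759), and *Hdac7* and *Mef2d* fell there. By genotype in iWAT, 0 genes of any of these lists were called.

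**Figure D5:**
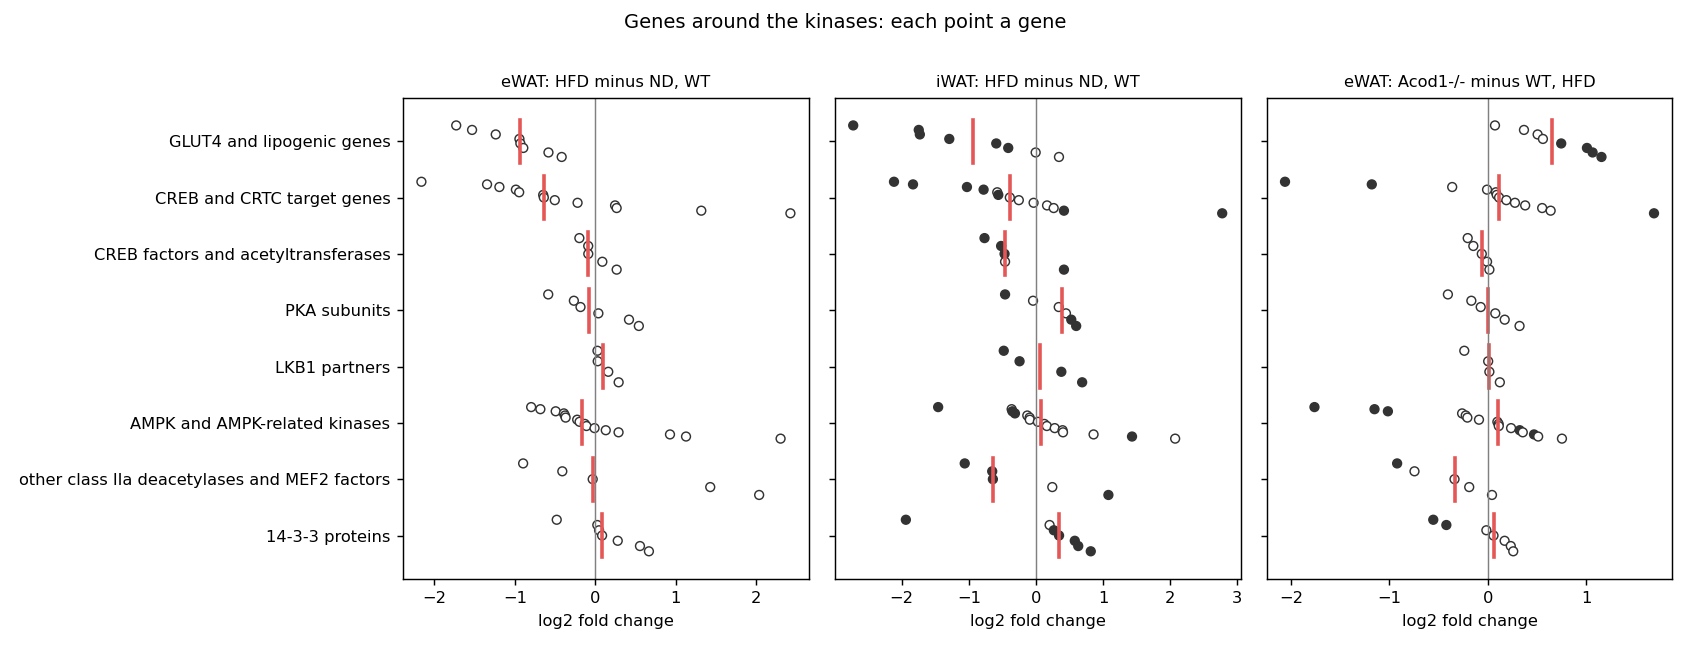
Each point is the log2 fold change of a gene in the named list, filled where the adjusted p was under 0.1 (no test is marked for diet in eWAT, the contrast of the selection), and red lines mark the list medians, for diet in eWAT, diet in iWAT and genotype in eWAT. GLUT4 and lipogenic genes have medians of -0.94, -0.94 and 0.65.

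By position in GRCm38, *Sik1* (ENSMUSG00000024042) lies at chromosome 17, 31844250 to 31855804, *Sik2* (ENSMUSG00000037112) at chromosome 9, 50892801 to 51009073, and *Sik3* (ENSMUSG00000034135) at chromosome 9, 46012820 to 46224194. *Stk11* (ENSMUSG00000003068) lies at chromosome 10, 80115803 to 80130682, *Crtc1* (ENSMUSG00000003575) at chromosome 8, 70382355 to 70439579, and *Crtc2* (ENSMUSG00000027936) at chromosome 3, 90254163 to 90264125. *Crtc3* (ENSMUSG00000030527) lies at chromosome 7, 80586627 to 80688877, *Hdac4* (ENSMUSG00000026313) at chromosome 1, 91928779 to 92195699, and *Hdac5* (ENSMUSG00000008855) at chromosome 11, 102194432 to 102230166. The *Sik2* gene overlaps *Ppp2r1b* and the *Stk11* gene overlaps *Cbarp*, each on the opposite strand, and *Crtc3*, *Hdac4* and *Hdac5* overlap smaller annotated genes. Whether counting used the strand is not given in the sources used here, so reads of these neighbours could be set to the members or left out as ambiguous. *Sik1*, *Sik3*, *Crtc1* and *Crtc2* overlap no other annotated gene.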

How the data were processed

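RNA-seq counts of 25 libraries were analysed in 6 groups taken from the labels. The authors isolated RNA from frozen tissue, prepared directional mRNA libraries, trimmed reads with cutadapt, removed short reads and contaminants, and aligned to GRCm38 with STAR. The deposited counts are unnormalized reads per gene, and the deposited FPKM values followed from these counts and the deposited cDNA lengths to within 0.0005. The counting program and its use of strand are not given in the sources used here. Reads on no feature (6.41% to 11.9%) and ambiguous reads (1.52% to 2.07%) were left out. Symbols came from GENCODE vM21 (54723 of 54752 IDs).

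Genes averaging 1 CPM or more in the libraries of a fit were normalized by TMM and tested with edgeR 4.0.16 (quasi-likelihood) in R 4.3.3, per depot with 3 groups and, between depots, over all 25 libraries. P-values were adjusted by Benjamini-Hochberg over the whole table, and genes were called below 0.1, as in the study. Printed CPM use TMM over all libraries, and log2 CPM a prior count of 2. Standard errors are those of fitted log2 fold changes. No pair in a group was a copy (lowest chi-square per degree of freedom 33.8). Alternatives were no filter, 1 CPM in every library, DESeq2 1.42.0 size factors and Wald test, an adjusted p under 0.05, a replicate block, the header series as a term, only the groups compared, HFD-fed libraries of the lower header series alone, and each library left out. The edgeR and DESeq2 steps were tested on simulated data. The members, the lists and the markers were chosen with earlier results of these data known. Named genes are the 9 members, per list, comparison and direction up to 3 called genes with the smallest adjusted p, and the 3 genes most correlated with each kinase. *Sik2* and *Sik3* were chosen for the depot comparisons after their values were seen.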

Additional observations from a re-analysis of the deposited data

Results flagged for a closer look

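The effect of diet on *Sik2* and *Sik3* differed between depots, by 1.06 and 0.74 on the log2 scale (iWAT minus eWAT). Both pass the threshold of the interaction term, and both contain the eWAT diet contrast from which these genes were selected, so the difference has no independent test here. It was fitted on counts scaled to library size only. Per 1000 CPM of adipocyte markers, mean *Sik3* on ND and HFD was 2.08 and 0.992 CPM in eWAT and 1.77 and 0.857 CPM in iWAT. Mean *Sik2* on this scale was 7.21 and 2.08 CPM in eWAT and 6.06 and 2.29 CPM in iWAT. The difference between depots was not tested on this scale.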

How the results depend on the processing

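Of the results recomputed, 18 changed sign, 2352 held, 11 passed the threshold and 121 lost it. Some, such as members by diet in eWAT, were judged without it. Causes were not tested. The 9 members had 1 called by genotype in eWAT, 2 by DESeq2's Wald test, and 1 to 2 when single libraries were left out, 2 without HFD-fed wild type replicate 3 or *Acod1*-/- replicate 2. By diet in iWAT 5 were called, 3 with the header series as a term, and 3 to 5 without single libraries, the lowest without ND replicate 1. By genotype in iWAT 0 were called, 2 within the lower number series (*Sik3* and *Hdac4*) and 0 to 1 without single libraries (1 without *Acod1*-/- replicate 3). Between depots on ND 1 was called, 3 in the fit of only the groups compared and 0 to 3 without single libraries, 0 without iWAT replicate 2 and 3 without iWAT replicate 1. Between depots in HFD-fed wild type mice 2 were called, 0 at an adjusted p under 0.05, 0 without a filter on low counts, and 0 to 2 without single libraries, 0 without eWAT replicate 1 or 4. Between depots in *Acod1*-/- mice and for genotype by depot the ranges were 0 to 1, with 1 without iWAT *Acod1*-/- replicate 3. With the series as a term, the log2 fold changes of *Hdac4* and *Hdac5* by diet in eWAT turned to -0.17 and -0.092, and that of *Sik1* by diet in iWAT to -0.18, and within the lower number series that of *Sik2* by genotype in iWAT was -0.021. Without single libraries, these uncalled log2 fold changes crossed 0. By diet in eWAT, *Stk11* ranged from -0.0025 to 0.12 and *Hdac5* from -0.077 to 0.092. By genotype in eWAT, *Sik1* ranged from -0.26 to 0.11 and *Hdac5* from -0.00082 to 0.14. By diet in iWAT, *Sik1* ranged from -0.15 to 0.26. By genotype in iWAT, *Sik2* ranged from -0.065 to 0.60, *Crtc3* from -0.16 to 0.035 and *Hdac5* from -0.17 to 0.034. Between depots in *Acod1*-/- mice, *Sik2* ranged from -0.33 to 0.33 and *Sik3* from -0.40 to 0.00072.

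Over all genes, by genotype in eWAT 1364 were higher and 1612 lower, and at an adjusted p under 0.05, 668 and 1049, with 703 and 1006 without HFD-fed wild type replicate 1, 720 and 1129 without its replicate 4, and 753 and 1079 or 785 and 1109 without *Acod1*-/- replicate 3 or 4. By diet in eWAT 3705 were higher and 4025 lower, and with the series as a term 2609 and 2530. By genotype in iWAT, where 0 were called, 43 were higher and 34 lower without a filter, 50 and 41 with 1 CPM in every library, 4 and 1 with DESeq2 size factors, 1 and 3 with the series as a term, 1026 and 1131 within the lower number series, and 72 and 138 without wild type replicate 5. Between depots on ND 2137 were higher and 2635 lower, and 1432 and 1499 without iWAT replicate 2. In HFD-fed wild type mice 1165 were higher and 1626 lower, and 637 and 1035 without eWAT replicate 1. Between depots in *Acod1*-/- mice 573 were called, and 34 higher and 39 lower in the fit of only the groups compared, 152 and 153 at an adjusted p under 0.05, 126 and 122 with 1 CPM in every library and 362 and 530 by DESeq2's Wald test. It was 72 and 93 without iWAT replicate 2, 173 and 182 without eWAT replicate 4, and 500 and 533 without iWAT replicate 3. For genotype by depot that test called 65 higher and 31 lower, and the fit of only the groups compared 0. Without a single *Acod1*-/- library it was 199 higher and 25 lower (eWAT replicate 5), 230 and 161 (iWAT replicate 3) and 47 and 4 (iWAT replicate 1).

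Whether replicate numbers pair libraries was not settled, since only same-numbered libraries were correlated. Correlations of same-numbered libraries' deviations ran from -0.277 to 0.266 in 13 pairs within eWAT and from -0.305 to 0.315 in 9 pairs within iWAT, and 9 and 3 of them were over 0.1. Between depots they ran from 0.0353 to 0.231 in 3 ND-fed pairs, from -0.0559 to 0.493 in 5 HFD-fed wild type pairs and from -0.0913 to 0.0851 in 3 *Acod1*-/- pairs, with 2, 3 and 0 over 0.1. With the replicate block, 3 members were called by diet in iWAT, *Crtc1* (-0.41, edgeR adjusted p = 0.161) and *Hdac5* (0.46, adjusted p = 0.104) losing the call, and 2 between depots on ND. *Crtc1* also lost it without a filter (adjusted p = 0.102). With the block, 328 genes of the whole table were higher and 156 lower for genotype by depot, where 1 was called without it.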
